A study of Mus musculus with 9 samples.

Results

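Hemgn, Alas2, Slc4a1, Epb42, Klf1, Gata1, Tal1, Nfe2 and Rhag are 9 genes of the erythroid (red blood cell) programme other than the globins, and they were 9 of the 54532 genes counted in mouse lambdoidal junction tissue. The 9 genes were chosen by name from this programme with their levels at the 3 stages already known, so the values below that set one stage against another are a description of these genes and carry no test. Each of the 9 symbols matched 1 row. The lambdoidal junction is the region where the maxillary, medial nasal and lateral nasal processes meet to form the upper lip and primary palate. C57BL/6J embryos were dissected on embryonic day 10.5 (E10.5), 11.5 (E11.5) or 12.5 (E12.5). Each stage has 3 libraries, and each library was made from the pooled junctions of several embryos. No genotype or treatment distinguished the groups, and stage is the only difference that the sample labels give. Each stage came from its own pregnant mice, so differences between litters or dissections cannot be told apart from stage. The 3 libraries of a stage are separate pools, so their spread measures variation between pools and not between single embryos.

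Red blood cells of the early mouse embryo come first from the yolk sac, enter the circulation as nucleated cells and complete their maturation while they circulate. They are later joined by definitive red cells from the fetal liver. As an erythroid cell matures, transcription factors such as Gata1, Tal1 and Klf1 switch on the genes for heme synthesis, for the membrane skeleton and for globin, and the cell ends by carrying mostly globin mRNA. A dissected facial tissue includes the blood in its vessels. In such bulk tissue, fewer red cells and less mRNA per red cell cannot be told apart.

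Total counts per library ranged from 16581009 to 20836804. Levels are given in CPM, read counts relative to library sizes that were scaled by the trimmed mean of M values. E10.5 replicate 3 stood apart from the other E10.5 libraries in the summed CPM of marker lists. Its 14 endothelial markers summed to 167 CPM, against 467 and 486 in the other two, its 10 facial mesenchyme markers to 1157 against 1957 and 1961, and its 10 facial epithelial markers to 964 against 538 and 615. It also held the lowest E10.5 level of Alas2, Slc4a1, Epb42, Klf1, Tal1 and Nfe2, but not of Hemgn, Gata1 or Rhag. The part of this library in the results was not tested, and log2 fold changes without it are given with the comparisons for the genes it moved most.

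The sequences that follow show where the letters read by GATA factors stand before the start sites of 4 of the genes, because Gata1 is itself one of the 9. RefSeq promoter entries (GRCm38.p6) were found for 7 of the 9 genes, with 8 entries in all. Slc4a1 and Nfe2 had no entry. The letters AGATAA or AGATAG, or else TGATAA or TGATAG, on either strand, stood within 250 bases before the start in 6 of these 7 genes (Hemgn, Alas2, Epb42, Klf1, Tal1 and Rhag, but not Gata1). Counted by entry these were 6 of 8, since the second of the 2 Tal1 entries held none, and 26.5% of all 32851 promoter entries of the same length held them. The first 3 runs lie outside annotated exons and the Hemgn run is the short site alone, which lies in an annotated exon of another transcript. Each is read 5′ to 3′ on the strand of its gene with the GATA letters (or their reverse complement) in capitals.
Alas2 (chrX:150547167-150547374, + strand): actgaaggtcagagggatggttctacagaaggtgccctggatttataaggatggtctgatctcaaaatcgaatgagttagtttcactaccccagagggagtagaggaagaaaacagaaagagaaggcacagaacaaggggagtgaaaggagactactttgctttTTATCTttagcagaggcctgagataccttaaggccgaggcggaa
Klf1 (chr8:84901732-84901927, + strand): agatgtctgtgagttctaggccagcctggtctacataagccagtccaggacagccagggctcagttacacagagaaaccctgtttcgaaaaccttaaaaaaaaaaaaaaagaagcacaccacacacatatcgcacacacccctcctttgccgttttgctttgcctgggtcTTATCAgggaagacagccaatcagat
Rhag (chr17:40810899-40811125, + strand): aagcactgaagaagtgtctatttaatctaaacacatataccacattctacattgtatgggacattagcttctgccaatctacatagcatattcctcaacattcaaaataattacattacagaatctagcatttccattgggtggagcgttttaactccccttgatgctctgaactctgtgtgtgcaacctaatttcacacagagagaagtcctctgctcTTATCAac
Hemgn (chr4:46404184-46404208, − strand): acctgtgcagtgTGATAAagaaagt

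The first base of the match stood 86 bases before the start in Alas2, 80 in Klf1, 31 in Rhag and 13 in Hemgn. In Epb42 and Tal1 it stood 226 and 205 bases before the start. The E-box letters CAGCTG or CAGATG were in 2 of the 7 genes (Epb42 and Klf1) and in 25.5% of all promoters. The CACC box letters CCNCACCC, read by Klf factors, were in 2 of the 7 (Alas2 and Gata1) and in 14.9% of all promoters. The NF-E2 core TGAGTCA was in 0 of the 7 and in 4.46% of all promoters. The 4 sets of letters do not overlap each other in these promoters. A match is a description of letters and does not show that a factor binds.

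Hemgn (hemogen, ENSMUSG00000028332, chr4:46393989-46413506, − strand, GRCm38) encodes a nuclear protein of blood-forming cells. Its highest library stood further above its lowest, as a ratio, than for any other of the 9 genes. Its E10.5 libraries held 17.9, 11.9 and 13.6 CPM, its E11.5 libraries 26.8, 26.7 and 25.5 CPM, and its E12.5 libraries 2.08, 2.85 and 1.37 CPM. The 3 stages did not overlap, with E11.5 highest and E12.5 lowest. The E12.5 values rest on 37, 53 and 23 counts. From E11.5 (26.4 ± 0.719 CPM, SD, n = 3) to E12.5 (2.10 ± 0.742), Hemgn stood at 8.02% of its earlier level by the fitted log2 fold change of −3.64 (SE 0.22). The value ranged from −3.93 to −3.42 when each library was left out in turn.

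**Figure D1:**
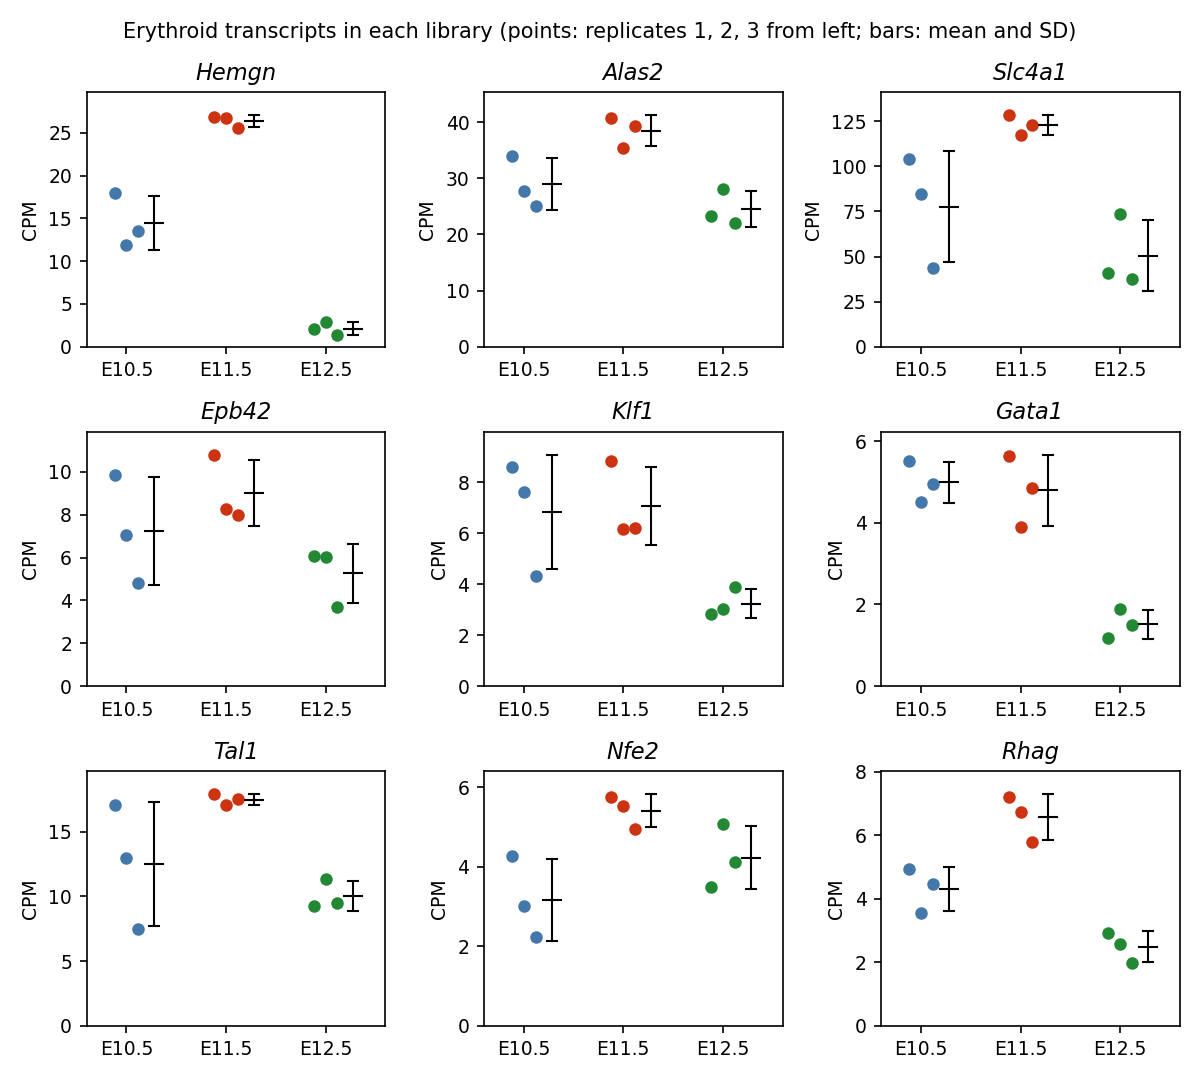
Level of each of the 9 erythroid genes in CPM (vertical axes, from 0, each with its own scale) in the 9 libraries by stage (horizontal axis). Points are the 3 replicates of a stage, from left to right, and the bars are the mean and SD. Hemgn stands at 25.5 CPM or more in every E11.5 library and at 2.85 CPM or less in every E12.5 library, whereas the Nfe2 libraries of these stages overlap.

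Alas2 (chrX:150547375-150570638, + strand) encodes the erythroid form of 5-aminolevulinate synthase, the first and rate-limiting enzyme of heme synthesis. It was at 34.1, 27.8 and 25.0 CPM at E10.5, at 40.8, 35.5 and 39.3 CPM at E11.5, and at 23.2, 28.1 and 22.1 CPM at E12.5. Every E11.5 library lay above every library of the other two stages, while E10.5 and E12.5 overlapped. By the fitted fold change, Alas2 stood at 63.4% of its E11.5 level at E12.5. Of its exon sequence, 15.5% is shared with the opposite-strand genes Apex2 and Mir3620, and reads there cannot be assigned without strand. The other 8 genes share no exon sequence with another gene.

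Slc4a1 (chr11:102348824-102366203, − strand) encodes band 3, the anion exchanger that anchors the membrane skeleton of the red cell. It was the most abundant of the 9 genes, with 104, 84.9 and 43.7 CPM at E10.5, 128, 117 and 123 CPM at E11.5, and 40.9, 73.5 and 37.4 CPM at E12.5. The E11.5 libraries were all above the rest, but E12.5 replicate 2 lay within the E10.5 range. Epb42 (chr2:121017891-121037072, − strand) encodes protein 4.2, which binds band 3 to the skeleton, and its libraries held 9.85, 7.07 and 4.83 CPM at E10.5, 10.8, 8.26 and 7.999 CPM at E11.5, and 6.08, 6.03 and 3.69 CPM at E12.5. Its E12.5 libraries were below all E11.5 libraries and overlapped E10.5. Rhag (chr17:40811126-40840754, + strand) encodes the Rh-associated glycoprotein, an ammonium channel of the red cell membrane. Rhag stood at 4.92, 3.54 and 4.46 CPM at E10.5, at 7.202, 6.73 and 5.79 CPM at E11.5, and at 2.93, 2.58 and 1.97 CPM at E12.5, with no overlap between any 2 stages.

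Klf1 (chr8:84901928-84905291, + strand), Gata1 (chrX:7959260-7978071, − strand), Tal1 (chr4:115056426-115071755, + strand) and Nfe2 (chr15:103248212-103258403, − strand) encode transcription factors of the erythroid lineage. Klf1 activates the adult beta-globin gene, Gata1 and Tal1 bind together at erythroid enhancers, and Nfe2 is the blood-specific subunit of NF-E2. Gata1, Tal1 and Nfe2 also act in megakaryocytes, and Tal1 in endothelial precursors.

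Gata1 stood at 5.52, 4.52 and 4.95 CPM at E10.5, at 5.64, 3.89 and 4.84 CPM at E11.5, and at 1.18, 1.88 and 1.49 CPM at E12.5. Its first 2 stages overlapped, and all E12.5 libraries were below them. Klf1 followed a like course, with 8.60, 7.59 and 4.33 CPM at E10.5, 8.81, 6.15 and 6.21 CPM at E11.5, and 2.81, 3.02 and 3.87 CPM at E12.5. The margin was narrow for Klf1, whose highest E12.5 library (3.87 CPM) was just under E10.5 replicate 3 (4.33 CPM).

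Tal1 was at 17.1, 13.0 and 7.49 CPM at E10.5, at 17.9, 17.1 and 17.5 CPM at E11.5, and at 9.29, 11.4 and 9.47 CPM at E12.5. Its E12.5 libraries were below all E11.5 libraries but within the E10.5 range. Nfe2 differed from the other 8 in that its E12.5 mean (4.22 ± 0.792 CPM) exceeded its E10.5 mean (3.17 ± 1.03 CPM). Its libraries held 4.27, 3.01 and 2.23 CPM at E10.5, 5.75, 5.52 and 4.95 CPM at E11.5, and 3.49, 5.06 and 4.11 CPM at E12.5. The E10.5 and E12.5 libraries of Nfe2 overlapped, as did those of E11.5 and E12.5.

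Levels of different genes were compared per kilobase of gene length. At E11.5 the order from the top was Slc4a1 (25.1 ± 1.13 CPM per kilobase), Alas2 (16.03 ± 1.15), Hemgn (10.5 ± 0.286), Klf1 (4.61 ± 0.995), Tal1 (3.99 ± 0.0964), Rhag (2.81 ± 0.307), Gata1 (1.97 ± 0.360), Nfe2 (1.81 ± 0.139) and Epb42 (1.67 ± 0.286). Neighbours in this order were apart in every library except Klf1 and Tal1, Gata1 and Nfe2, and Nfe2 and Epb42. At E10.5 only Alas2 and Hemgn were apart among neighbours. Slc4a1, Alas2, Hemgn, Klf1 and Tal1 held the first 5 places there as well. At E12.5 Slc4a1 (10.3 ± 4.08) and Alas2 (10.2 ± 1.33) overlapped at the top, and Hemgn (0.837 ± 0.296) ranked 8 of 9, above Gata1 (0.623 ± 0.145). The FPKM values of the authors gave the same order at each stage.

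**Figure D2:**
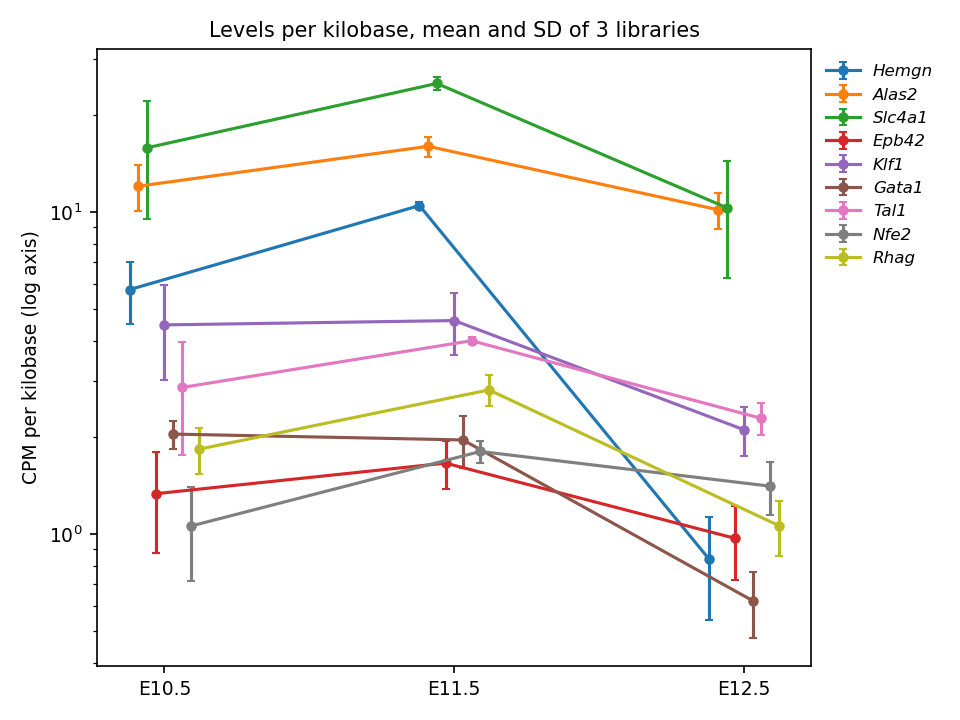
Level of each of the 9 genes in CPM per kilobase of gene length (vertical log axis) at the 3 stages (horizontal axis), as mean and SD of 3 libraries, shifted sideways for legibility. Hemgn ranks 3 at E10.5 and E11.5 and 8 at E12.5, while Slc4a1 and Alas2 stay at the top.

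In E11.5 vs. E10.5, 8 of the 9 genes were higher in the mean at E11.5, with a median log2 fold change of 0.48 against −0.03 over the 15708 genes tested. Every E11.5 library was above every E10.5 library for 5 genes, Hemgn, Alas2, Slc4a1, Nfe2 and Rhag, a separation met by 18.4% of all genes tested. Hemgn showed a log2 fold change of 0.87 (SE 0.17), Nfe2 0.77 (SE 0.26), Slc4a1 0.67 (SE 0.27) and Rhag 0.61 (SE 0.20). Tal1 (0.48), Alas2 (0.41) and Epb42 (0.32) followed. Klf1 (0.05, SE 0.28) and Gata1 (−0.06, SE 0.21) differed by less than their standard errors.

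A differentially expressed gene (DEG) had an adjusted p of at most 0.05 in the quasi-likelihood test of edgeR and differed by 1 or more on the log2 scale in either direction. In E11.5 vs. E10.5, 0 of the 9 genes met these thresholds with edgeR, where 3.46% of all genes tested were higher DEGs and 2.61% lower DEGs. DESeq2 also gave 0 of 9, and 5 of the 9, all higher at E11.5, had an unadjusted p under 0.05 with edgeR. Of all genes tested, 13.7% did so in this direction, and the count is a description of chosen genes. Without E10.5 replicate 1, the E10.5 library with the most of all 9 transcripts, Hemgn (1.05) and Nfe2 (1.04) met the thresholds. Without E10.5 replicate 3, the log2 fold change of Slc4a1 was 0.38, that of Tal1 0.22 and that of Epb42 0.096, while Nfe2 was at 0.57 and Alas2 at 0.32. Without E10.5 replicate 1, Slc4a1 was at 0.94, Tal1 at 0.77 and Epb42 at 0.60. Klf1 was at −0.20 without E10.5 replicate 3 and at 0.24 without E10.5 replicate 1, so its direction in this comparison was not stable.

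In E12.5 vs. E11.5, all 9 genes were lower in the mean at E12.5, and for all but Nfe2 the libraries did not overlap. A separation in this direction was met by 16.9% of all genes tested. The median log2 fold change of the 9 was −1.13, against 0.02 over the 15808 genes tested. Hemgn (−3.64, SE 0.22), Gata1 (−1.65, SE 0.27), Rhag (−1.40, SE 0.22), Slc4a1 (−1.28, SE 0.22) and Klf1 (−1.13, SE 0.23) met the DEG thresholds. These are 5 of 9, with lower DEGs at 0.962% and higher DEGs at 4.14% of all genes tested. Since the genes were chosen with these values known, the count describes them and nothing is read from it. Tal1 (−0.80, SE 0.15), Epb42 (−0.78, SE 0.23), Alas2 (−0.66, SE 0.14) and Nfe2 (−0.36, SE 0.21) were under the fold threshold. Klf1 missed the thresholds without E11.5 replicate 1 (−0.95) or without E12.5 replicate 1 (−1.04). The other 4 met them whichever library was left out.

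**Figure D3:**
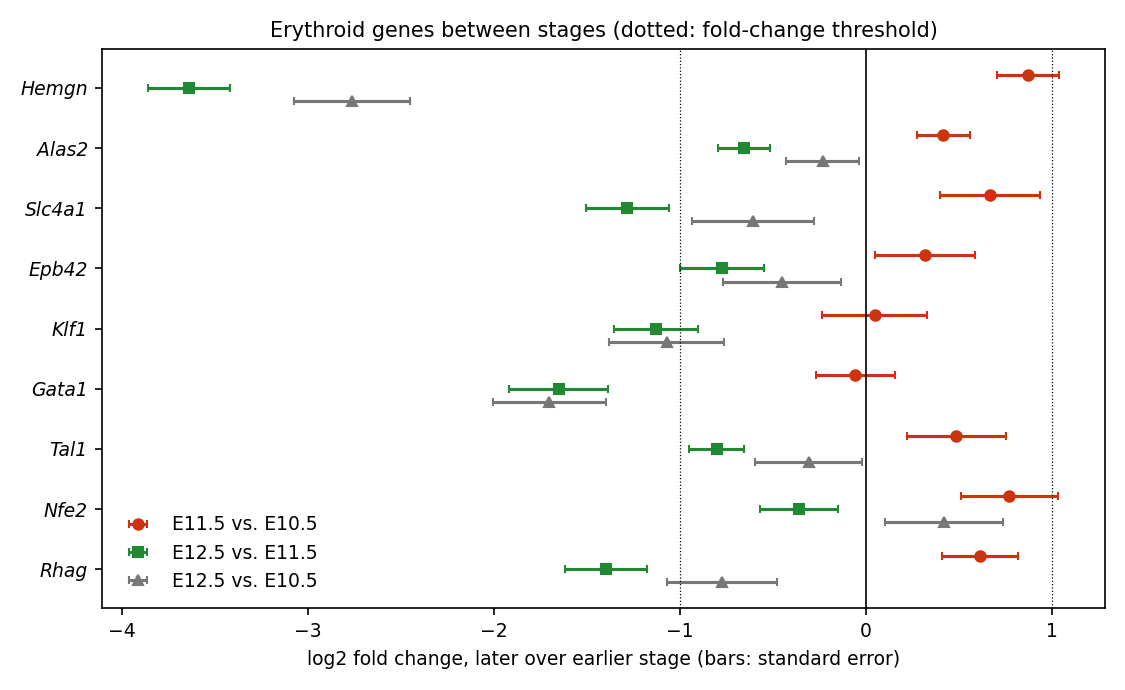
Log2 fold change, later against earlier stage (horizontal axis), with its standard error for the 9 genes (rows) in the 3 comparisons. All 9 values of E12.5 vs. E11.5 lie below 0, from −3.64 for Hemgn to −0.36 for Nfe2, and dotted lines mark the fold threshold of the DEG definition.

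E12.5 vs. E10.5 shares its libraries with the other 2 comparisons. Hemgn (−2.76, SE 0.31), Gata1 (−1.70, SE 0.30) and Klf1 (−1.07, SE 0.31) met the DEG thresholds, beside 5.08% lower and 9.97% higher DEGs among the 15899 genes tested. Hemgn, Gata1, Klf1 and Rhag (−0.78) had every E12.5 library below every E10.5 library, against 20.4% of all genes tested. Slc4a1 (−0.61), Epb42 (−0.45), Tal1 (−0.31) and Alas2 (−0.23) overlapped between these stages. Nfe2 was at 0.42 (SE 0.32). These 5 values moved with the E10.5 libraries. Without E10.5 replicate 1 they were −0.35 for Slc4a1, −0.18 for Epb42, −0.035 for Tal1, −0.12 for Alas2 and 0.68 for Nfe2. Without E10.5 replicate 3 they were −0.89, −0.67, −0.57, −0.32 and 0.23 in the same order. Leaving out E12.5 replicate 2 gave −0.98 for Slc4a1 and 0.27 for Nfe2, and leaving out E12.5 replicate 3 gave −0.25 for Epb42. With libraries left out in turn, Klf1 met the thresholds only without E10.5 replicate 3 (−1.31), and its values ranged from −1.31 to −0.89.

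The ratio of 2 counts from the same library does not depend on how libraries are scaled. Hemgn made up 9.41% ± 2.57 (SD, n = 3) of the summed counts of the 9 genes at E10.5. Its share was 11.1% ± 0.594 for E11.5 and 1.997% ± 0.348 for E12.5. For each Alas2 count there were 0.498 ± 0.0623, 0.687 ± 0.0579 and 0.0844 ± 0.0203 Hemgn counts at the 3 stages. Hemgn was thus lower at E12.5 relative to Alas2 in every library (0.0620 to 0.102, against 0.427 or more elsewhere). Alas2 itself took 16.2% ± 0.562 of the 9 at E11.5 and 24.0% ± 2.71 at E12.5. The share of Nfe2 was 1.98% ± 0.117, 2.27% ± 0.163 and 4.12% ± 0.596, with all E12.5 libraries above the rest. Slc4a1 held 39.6% to 54.7% of the 9 in every library, and its stages overlapped.

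The 9 globin genes, which encode the oxygen carrier of red cells, summed to 4203 ± 674, 5406 ± 168 and 5084 ± 706 CPM in stage order. The 9 erythroid genes summed to 160 ± 48.0, 238 ± 12.8 and 104 ± 26.6 CPM. Per 1000 globin counts, the 9 erythroid genes gave 38.9 ± 12.8 counts (E10.5), 44.0 ± 2.21 (E11.5) and 21.1 ± 8.10 (E12.5). The E12.5 libraries (18.6, 30.2 and 14.6) were below the E11.5 libraries (46.5, 43.4 and 42.2), and E10.5 replicate 3 (24.2) lay among them. Hemgn gave 4.88 ± 0.266 counts per 1000 globin counts at E11.5 and 0.432 ± 0.204 at E12.5. Nfe2 gave 1.00 ± 0.0978 and 0.848 ± 0.250, which overlapped. The summed globin transcripts were near their E11.5 level at E12.5, with overlapping libraries, while 8 of the 9 erythroid genes were below theirs. Single globins differed from the sum. Hba-x stood at 55.8% and Hbb-bh1 at 25.4% of the E11.5 level, both with all E12.5 libraries below. Hbb-y stood at 113%, and all 4 adult globins were higher at E12.5.

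**Figure D4:**
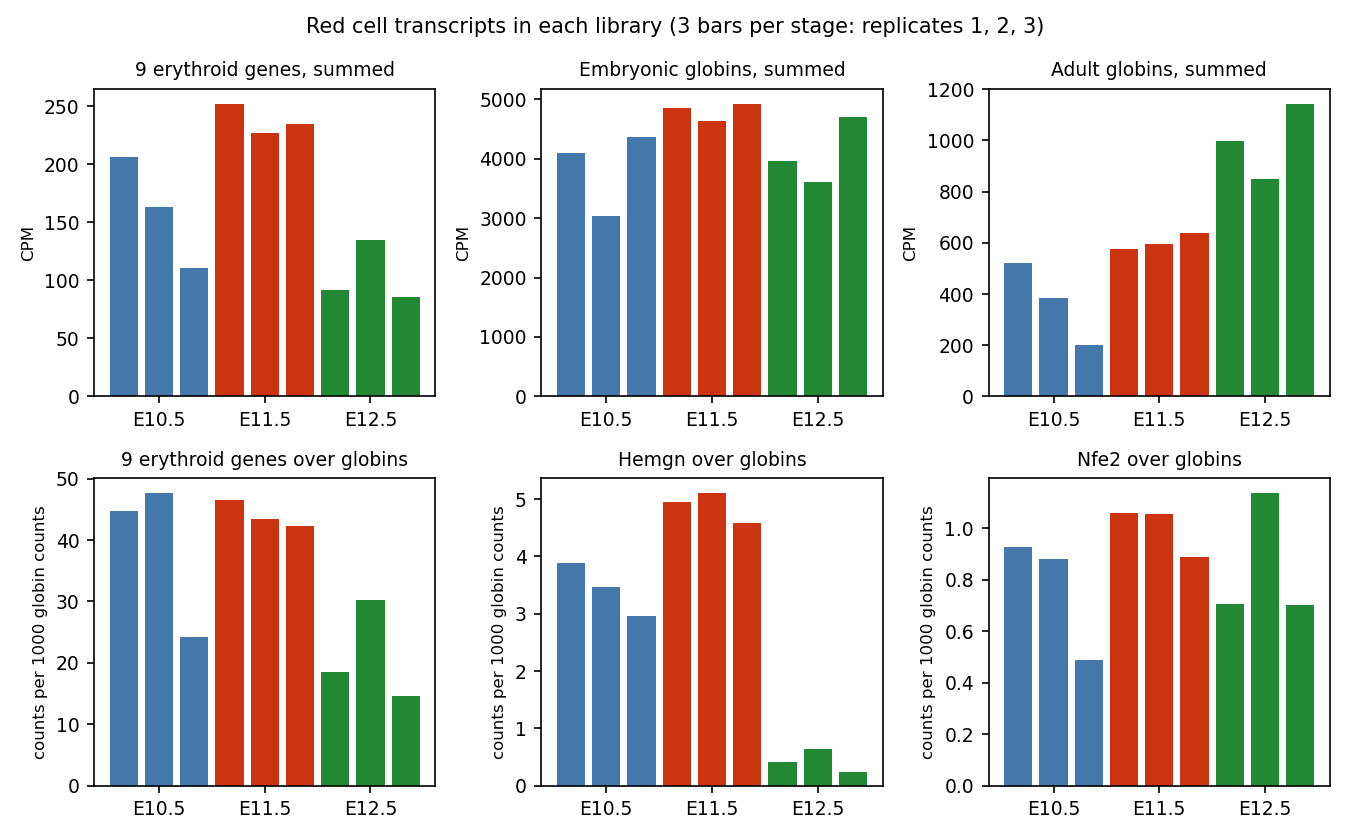
Summed CPM of the 9 erythroid genes, the embryonic globins and the adult globins (upper row) and counts per 1000 globin counts of the 9 genes, Hemgn and Nfe2 (lower row), with 1 bar for each of the 3 replicates of a stage. The 9 genes sum to 227 CPM or more at E11.5 and 134 CPM or less at E12.5, whereas the adult globins sum to 638 CPM or less at E11.5 and 848 CPM or more at E12.5.

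Other genes of the red cell were taken from 4 lists with 72 genes in the table, none of them one of the 9 or a globin. These lists too were chosen with earlier results of these data known. Their counts and adjusted p-values are therefore a description and not independent support. Of those that code for the membrane and its skeleton, 15 were tested, and 13 had a negative log2 fold change in E12.5 vs. E11.5. Of the 15, 6 were downregulated DEGs and 1 an upregulated DEG, beside 0.962% and 4.14% of all genes tested, with a median log2 fold change of −0.85. Sptb, the beta chain of spectrin, fell by 1.61 (SE 0.22, adjusted p = 0.00121) on the log2 scale. This and the adjusted p-values that follow are from the edgeR fit across all genes, adjusted by Benjamini-Hochberg. Ank1, the ankyrin that ties spectrin to band 3, fell by 1.36 (SE 0.21, adjusted p = 0.00237). Rhd, the Rh antigen protein that associates with Rhag, fell by 1.06 (SE 0.19, adjusted p = 0.00455), but missed the thresholds without E12.5 replicate 2 (log2 fold change −0.95). Tmod1, which caps actin filaments, fell by 1.46 (SE 0.37, adjusted p = 0.029), a call kept only without E12.5 replicate 2 when libraries were left out in turn (log2 fold changes from −1.70 to −1.25). Aqp1, a water channel also made by other cell types such as endothelium, rose by 2.39 (SE 0.20, adjusted p = 8.34e-05) in the same comparison.

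The medians of the other lists were nearer to 0. Of 16 heme and iron genes, 1 was a downregulated DEG in E12.5 vs. E11.5, with a median of −0.13 and values from −1.08 to 0.27. It was Steap3, the ferrireductase of the transferrin cycle (−1.08, SE 0.24, adjusted p = 0.0145), a call lost without E11.5 replicate 2 or 3 or E12.5 replicate 1 (−1.25 to −0.90 over all libraries left out). Of 15 maturation genes tested, 2 were downregulated DEGs. These were Pklr, the pyruvate kinase of red cells and liver (−2.28, SE 0.28, adjusted p = 0.000564), and Slc38a5, a glutamine transporter (−2.63, SE 0.35, adjusted p = 0.00093). Slc38a5 was low, with means of 2.72 CPM at E11.5 and 0.44 CPM at E12.5. Of 21 regulators tested, 0 were DEGs by edgeR or DESeq2, and 4 higher and 4 lower genes had an unadjusted p under 0.05 with edgeR. The share of all genes at that unadjusted cut was not computed for this comparison, so nothing is read from these counts. Over the 4 lists, 9 of 67 tested genes were downregulated DEGs and 1 was upregulated, against 0.962% and 4.14% of all genes tested.

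**Figure D5:**
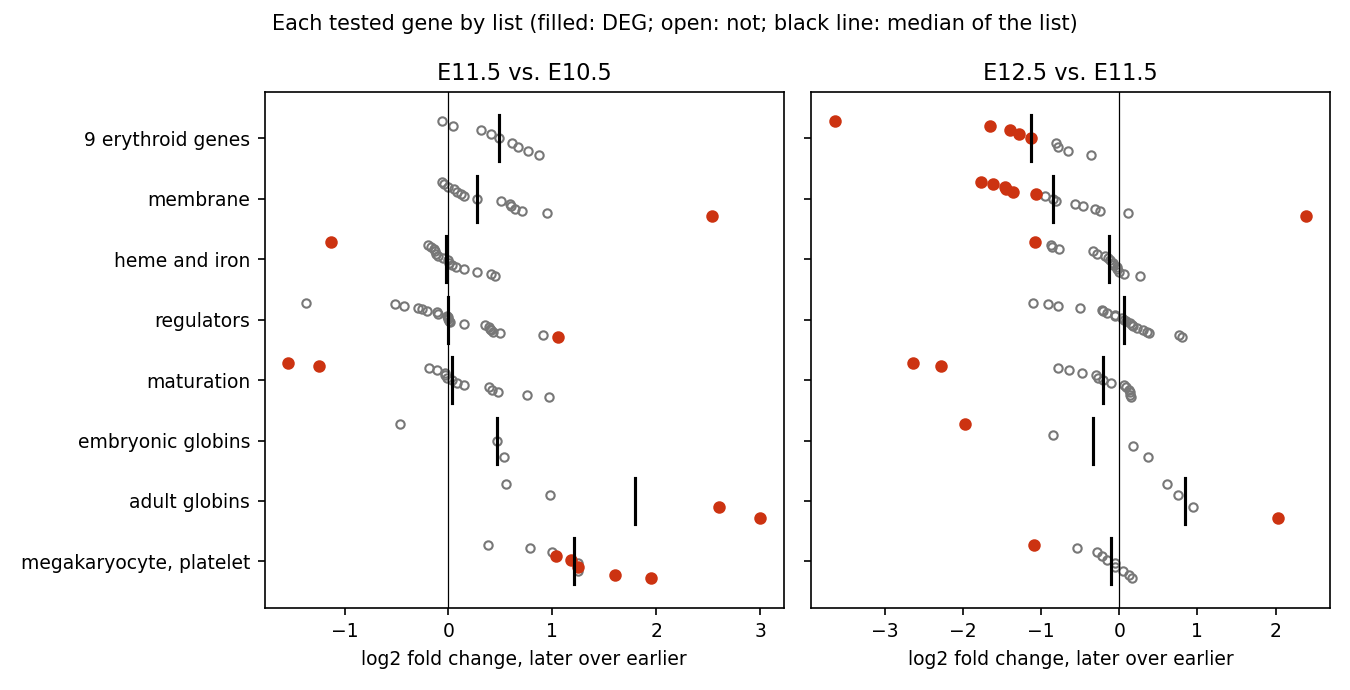
Log2 fold change (horizontal axis) of each tested gene for E11.5 vs. E10.5 (left panel) and E12.5 vs. E11.5 (right panel), by list (rows). Filled points met the DEG thresholds, open points did not, and black lines are medians. In E12.5 vs. E11.5 the medians are −1.13 for the 9 erythroid genes, −0.85 for membrane genes, −0.13 for heme and iron genes and 0.06 for regulators.

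In E11.5 vs. E10.5, 3 of 68 tested genes of the lists were downregulated DEGs and 2 upregulated, shares near the 2.61% and 3.46% of all genes tested. Tfrc, the transferrin receptor that many dividing cells carry, fell by 1.13 (SE 0.29, adjusted p = 0.0415), a call lost without E10.5 replicate 3 or any E11.5 replicate (−1.33 to −0.67). Pklr fell by 1.54 (SE 0.27, adjusted p = 0.0112) and Dyrk3, a kinase, by 1.25 (SE 0.21, adjusted p = 0.0101). Aqp1 rose by 2.54 (SE 0.32, adjusted p = 0.00306), and Bcl11a, a repressor of globin genes that neural cells also make, rose by 1.06 (SE 0.16, adjusted p = 0.00678). The calls of Pklr (−1.78 to −1.32), Dyrk3 (−1.33 to −1.08) and Bcl11a (0.89 to 1.16) were each lost without E11.5 replicate 1, that of Pklr also without E11.5 replicate 3 and that of Bcl11a also without E10.5 replicate 3. Membrane genes had a median of 0.27, with 1 upregulated DEG (Aqp1) and 0 downregulated DEGs by edgeR or DESeq2, and 0 lower genes had an unadjusted p under 0.05. The share of all genes that were lower at that unadjusted cut was not computed.

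In E12.5 vs. E10.5, 12 of 68 tested genes were downregulated DEGs and 3 upregulated, against 5.08% and 9.97% of all genes tested. The downregulated genes included Ank1, Sptb and Tmod1 of the membrane, Tfrc, the regulators Ikzf1, Epo and Kit, and Pklr, Dyrk3 and Slc38a5. Epo was low throughout, with means of 0.89 CPM at E10.5 and 0.095 CPM at E12.5. Slc38a5 (0.44 CPM) and Tmod1 (0.54 CPM) were also low at E12.5, so these calls rest on few counts. Aqp1, Bcl11a and Runx1, a blood regulator that facial tissues also make, were upregulated. Pklr showed the largest fall, of 3.81 (SE 0.36, adjusted p = 3.43e-05). Kit, the stem cell factor receptor that pigment cell precursors also carry, fell by 1.21 (SE 0.22, adjusted p = 0.00246). Leaving out E12.5 replicate 1 or 3 ended the calls of Ank1 (−1.38 to −0.78), Sptb (−1.82 to −1.23), Tmod1 (−1.74 to −1.25) and Ikzf1 (−1.39 to −1.001). Leaving out E10.5 replicate 1 ended that of Ank1, E10.5 replicate 2 those of Ank1 and Tmod1, and E10.5 replicate 3 that of Dyrk3 (−1.20 to −0.93).

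Marker lists of other cells were read beside these results, since Gata1, Tal1 and Nfe2 are shared with megakaryocytes. Of 10 megakaryocyte and platelet genes tested, 5 (Pf4, Ppbp, Gp1ba and Gp6 among them) passed the DEG thresholds as higher at E11.5 than at E10.5. Among all genes tested, 3.46% did so. With libraries left out in turn, Ppbp kept its call throughout (1.72 to 2.09). That of Pf4 (0.93 to 1.23) was lost without E10.5 replicate 2 or 3 or E11.5 replicate 1 or 3, and that of Gp6 (1.45 to 1.83) without E10.5 replicate 1 or 2 or E11.5 replicate 1 or 3. That of Gp1ba (0.96 to 1.37) held only without E10.5 replicate 3. The list summed to 18.9 to 45.3 CPM in the E10.5 libraries, 63.5 to 70.8 in E11.5 and 52.8 to 71.4 in E12.5. In E12.5 vs. E11.5, 1 of the 10 was a downregulated DEG, beside 0.962% of all genes tested, and the list had a median of −0.11. Gp1bb was at 0 in all libraries and Selp at 0 in those of E10.5. Macrophage markers summed to 32.7 to 47.6, 43.4 to 48.4 and 55.5 to 61.2 CPM, with 0 of 12 DEGs by edgeR or DESeq2 in both comparisons of consecutive stages. Of all genes tested with edgeR, 3.46% were higher and 2.61% lower DEGs in E11.5 vs. E10.5. The shares were 4.14% and 0.962% in E12.5 vs. E11.5. At an unadjusted p under 0.05, edgeR gave 1 higher macrophage gene in E11.5 vs. E10.5, beside 13.7% of all genes tested. It gave 4 in E12.5 vs. E11.5, where that share was not computed.

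Endothelial markers, which mark the vessels that hold the blood, summed to 454 to 460 CPM at E11.5 and 471 to 513 at E12.5. Of these 14 genes, 1 (Sox18, upregulated) was a DEG in E12.5 vs. E11.5, where 4.14% of all genes tested were upregulated DEGs. Facial mesenchyme markers were at 2696 to 2883 and 2774 to 3096 CPM, facial epithelial markers at 536 to 564 and 766 to 849, and neural markers at 325 to 373 and 402 to 432, in that order. The neural list summed to 565 to 688 CPM at E10.5. None of the markers of these 4 tissues was at 0 in all libraries of a stage. The part of the changing tissue in the erythroid values was not tested.

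The 9 genes were also compared with each other over the 9 libraries by Pearson's r on log2 CPM, as a description in which the points share stage and depth. Against the mean of the other 8 (each standardised), r was 0.966 for Alas2, 0.956 for Slc4a1, 0.904 for Tal1, 0.889 for Epb42, 0.872 for Hemgn, 0.866 for Rhag, 0.815 for Klf1, 0.752 for Gata1 and 0.462 for Nfe2. Nfe2 thus followed the others least. Among 14513 further genes with a mean of at least 1 CPM, the 10 most like the mean of the 9 included Ank1 (0.963), Acp5, Cyyr1, Slc25a37, Slc30a10, Ppfibp2, Sh3rf1, Atg4b and Asb4 (0.952). Ank1 and Slc25a37, the mitochondrial iron importer of erythroid cells, were on the erythroid lists. Asb4 was at 77.5 ± 17.3, 120 ± 4.02 and 47.3 ± 7.93 CPM at the 3 stages.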

How the data were processed

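RNA was sequenced from pooled lambdoidal junction tissue of C57BL/6J embryos of 3 stages (E10.5, E11.5, E12.5), with 3 libraries each. Reads were mapped by the authors to GRCm38/mm10 with HISAT2 (version 2.0.5, also in the submitters' processing notes), and the deposited table holds the raw read counts per gene from featureCounts. The FPKM columns were computed by the authors from these counts and gene length, and served here only for the order of levels. The strand setting and the handling of multiply mapped reads are not given in the sources used here. A further 15 columns hold stage means, fold changes and p-values of the authors' own DESeq2 comparisons and were not used.

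Stages were compared in pairs, 6 libraries at a time, with edgeR 4.0.16 (R 4.3.3): filterByExpr, TMM scaling, quasi-likelihood test and Benjamini-Hochberg adjustment over all genes tested. All 9 genes passed the filter in each comparison. DEGs had an adjusted p of 0.05 or less and a log2 fold change of 1 or more in size. Alternatives were DESeq2 1.42.0, other scalings and filters, a GC correction, a fit on all 9 libraries, a replicate block and leaving out each library. The code was tested on simulated data. GC content came from GENCODE vM21 (99.77% of genes). Motif letters were searched in the 250 bases before each RefSeq start. The 9 genes and the companion lists were chosen with earlier results of these data known. All 9 genes are named with their values. Companion genes and markers are named where they were DEGs (a few are not reported here), as are the 10 genes of highest r (on log2 CPM with a prior count of 2). Near-identical globin genes share reads, so the split between them is uncertain. Total counts of 16581009 to 20836804 per library leave the E12.5 counts of Hemgn and Gata1 as the least precise.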

Additional observations from a re-analysis of the deposited data

How the results depend on the processing

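The number of the 9 genes that met the DEG thresholds was 0 for E11.5 vs. E10.5, 5 for E12.5 vs. E11.5 and 3 for E12.5 vs. E10.5. Leaving out each library gave 0 to 2, 4 to 5 and 2 to 3. Downregulated DEGs of the 4 companion lists numbered 3, 9 and 12, and leaving out each library gave 0 to 3, 7 to 14 and 7 to 13. The count of 3 went to 0 without E11.5 replicate 1 and to 1 without E11.5 replicate 3, that of 9 to 14 without E12.5 replicate 2, and that of 12 to 7 without E12.5 replicate 1 or 3. Each of these fits assumes the remaining libraries to vary alike. At an adjusted p of at most 0.01, 0 listed genes were downregulated DEGs in E11.5 vs. E10.5. With embryonic globins alone as divisor, the 9 genes gave 43.1 counts per 1000 at E10.5 in place of 38.9. They gave 49.6 at E11.5 in place of 44.0, and 26.2 at E12.5 in place of 21.1. Of 405 log2 fold changes of the 9 genes under the alternatives, 404 moved by less than the replicate spread. Leaving out 1 of 3 libraries can hardly move a value by more than that spread, so this count does not measure stability. Epb42 in E11.5 vs. E10.5 ranged from 0.096 to 0.60, for example. Among the 405, the DEG call changed in 9, and 4 (of Klf1 and Gata1 in E11.5 vs. E10.5, near 0) had the opposite sign. Replicate numbers did not pair the samples (correlations of deviations from −0.151 to 0.22). A replicate block gave 0, 5 and 3 of the 9 genes and 3, 9 and 12 listed genes, as without it.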

Other observations

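The globin genes showed a change in their composition that the summed values hide. Hbb-bh1, an embryonic beta-like globin, measured 856 ± 257 CPM (SD, n = 3) for E10.5, 620 ± 58.3 for E11.5 and 158 ± 40.8 for E12.5, and fell by 1.98 on the log2 scale in E12.5 vs. E11.5 (SE 0.18, adjusted p = 0.000139, edgeR). Hbb-y, the other main embryonic beta-like globin, was at 1983 ± 551, 2744 ± 177 and 3124 ± 432 CPM and was not a DEG. Hba-x, the embryonic alpha-like globin, was at 995 ± 274, 1437 ± 29.6 and 805 ± 96.5 CPM, with no DEG call. Its log2 fold change in E12.5 vs. E11.5 was −0.84 (SE 0.13, adjusted p = 0.0026, edgeR), under the fold threshold. Hbb-bs, an adult beta globin, rose from 3.13 ± 1.08 to 19.0 ± 4.04 and 78.1 ± 10.04 CPM, by 2.61 (SE 0.27, adjusted p = 0.00174, edgeR) and then 2.03 (SE 0.17, adjusted p = 7.25e-05, edgeR) on the log2 scale. Hbb-bt was at 6.13 ± 3.61, 48.8 ± 7.77 and 82.4 ± 14.7 CPM, Hba-a1 at 339 ± 151, 498 ± 19.2 and 762 ± 109 CPM, and Hba-a2 at 19.5 ± 11.8, 38.2 ± 6.31 and 73.7 ± 19.4 CPM. Hbb-bh2 and Hbb-bh0 stayed under 1 CPM in every library. Embryonic genes made up 91.0% ± 3.96, 88.8% ± 0.450 and 80.4% ± 0.545 of globin counts at the 3 stages. The adult genes are near-identical pairs, so their sum is firmer than the value of either.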
